A study of Mus musculus with 34 samples.

Results

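Cytosolic ribosomal proteins are the protein parts of the ribosome that works outside mitochondria. Their genes were taken from the deposited tables by name. The rows chosen were annotated as protein coding, with a symbol that starts with Rpl (large subunit) or Rps (small subunit) and a digit, plus Rplp0, Rplp1, Rplp2 and Rpsa. Names that start with Rps6k (kinases), names with a hyphen and pseudogene names of the form Rpl or Rps followed by -ps or ps and a number were left out. The rule gave 86 of the 55385 rows in the tables and of the 21856 protein coding rows. Of these 86 genes, 52 carry large subunit names and 34 small subunit names. Enough reads for testing were found for 83, which are 49 large and 34 small subunit names. Rpl3l, Rpl39l and Rpl10l were too low.

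The ribosome translates mRNA into protein. Its small subunit reads the mRNA and its large subunit joins the amino acids, and since a particle needs the proteins of both in fixed proportion, their genes are usually expressed together. Their mRNAs are among the most abundant of a cell. Most belong to the TOP class (terminal oligopyrimidine), whose 5′ end is a run of C and T and whose translation is turned up by the kinase complex mTORC1 and held back by the RNA-binding protein Larp1. In neurons local ribosomes in dendrites and axons supply protein near synapses.

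The libraries are poly(A) RNA of hippocampus from 34 mice, each 6 months old, in 8 groups made by 4 genotypes and 2 treatments. The genotypes were wild-type C57BL/6J (WT), Dp16, 5xFAD and the combination 5xFAD-Dp16. In Dp16 a long stretch of mouse chromosome 16, matching much of human chromosome 21, is present in an additional copy. The 5xFAD transgenes are of human origin, carry familial Alzheimer mutations and are driven by the neuronal Thy1 promoter, so amyloid comes from neurons in that model. For a month each animal received, daily by oral gavage, either 15 mg/kg tofacitinib, an inhibitor of Janus kinases, or the 0.5% methylcellulose vehicle (sham). There were 5 sham and 5 tofacitinib libraries of WT, 3 and 5 of Dp16, 4 and 5 of 5xFAD, and 3 and 4 of 5xFAD-Dp16. Both sexes were present in every group. The labels give a strain for WT alone and do not say whether animals shared a litter, so p-values measure the spread between these samples. Further animals that the design text counts (1 tofacitinib 5xFAD, 1 sham 5xFAD-Dp16) are not analysed here.

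Library totals were 14.9 to 21.1 M counts. Most libraries held strong signal of the 8 dentate gyrus markers (mean log2 CPM from 4.35 to 5.76), and 3 stood apart: library 3 of tofacitinib WT, library 2 of tofacitinib 5xFAD and library 4 of sham 5xFAD-Dp16, with 2.07, 2.44 and 2.41. Against the mean over libraries, the deviations of the striatum markers in these 3 were 2.62, 3.39 and 0.40, and those of the thalamus and habenula markers 0.24, 3.31 and 2.29. Library 1 of tofacitinib 5xFAD-Dp16 had 1.31 and 1.60 for those lists, with dentate gyrus markers at 4.35. In the other 30 libraries striatum markers lay between -0.57 and -0.04. Results below are given with these 3 libraries, and without them where a value moved. CPM here means counts per M counts in tested genes after TMM scaling. The gene with the smallest adjusted p for the Dp16 segment was Tmem50b, a gene of that segment (adjusted p = 8.55e-15, edgeR). None of the 86 ribosomal protein genes lies in the segment (chromosome 16, 75540514 to 97962622, GRCm38).

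Start sites are shown first because the run of C and T at the 5′ end is what places these genes in the TOP class. RefSeq promoters (GRCm38.p6, 250 bases before to 50 after a start) were found for 66 of the 86 genes. A run of at least 7 C or T that reached into the stretch from 5 bases before to 10 after a listed start was present in 32 of them (48.5%), against 5070 of 27025 genes of the table (18.8%). Capitals mark that run in the windows printed next, which begin 10 bases before the start. Rps6, Rplp2, Rpl28 and Rps27 stand for the genes with a run. Rps27rt, a retrogene of Rps27, and the pair Rpl22 and Rpl22l1 are shown because these copies differ in it.
Rps6, chr4:86857348-86857377, minus strand: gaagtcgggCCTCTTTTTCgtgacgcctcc
Rplp2, chr7:141447641-141447670, plus strand: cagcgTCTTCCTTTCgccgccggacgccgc
Rpl28, chr7:4792955-4792984, plus strand: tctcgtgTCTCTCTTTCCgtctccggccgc
Rps27, chr3:90213629-90213658, minus strand: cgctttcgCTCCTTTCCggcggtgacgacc
Rps27rt, chr9:114982720-114982749, minus strand: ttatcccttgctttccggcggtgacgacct
Rpl22, chr4:152325716-152325745, plus strand: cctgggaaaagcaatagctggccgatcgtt
Rpl22l1, chr3:28805498-28805527, plus strand: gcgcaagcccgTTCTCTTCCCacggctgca
The windows of Rps6, Rplp2, Rpl28, Rps27 and Rpl22l1 held a run of 9 to 11 C or T around the start. Those of Rps27rt and Rpl22 held no run of 7, and neither did a second listed start of Rpl22.

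Other short motifs were counted on both strands of the whole 300-base promoters. CCGGAAG, the core bound by ETS factors such as GABPA, was found in 26 of the 66 genes (39.4%) and in 9.93% of all genes. AAGATGGC, the core bound by YY1, came up in 6 (9.09% against 3.19%). TATAAA, the TATA box, was found in 7 (10.6% against 15.7%). The reverse complement of CCGGAAG holds the 5 pyrimidines CTTCC and can overlap a run of C and T. These are matches of letters and not measured binding sites, and a start listed by RefSeq can lie some bases from the start used in this tissue.

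The level per length of these genes was read from the deposited RPKM values (reads per kilobase and M reads). Of the 100 nuclear protein coding genes with the highest mean RPKM, 18 were ribosomal protein genes, and of the highest 500 there were 64. Median RPKM over the 83 tested genes was 214, with an interquartile range of 147 to 307, against a median of 1.81 over the 21856 protein coding rows. Rplp1, whose product forms with Rplp0 and Rplp2 the stalk that binds elongation factors, was first in every library, at 1480 ± 225 RPKM (SD, n = 34, range 980.1 to 1909). Next came Rps29 (663 ± 83.9) and Rps15 (662 ± 104), proteins of the small subunit, whose order changed between libraries. The other stalk genes were lower per length, Rplp0 at 216 ± 32.3 and Rplp2 at 213 ± 28.3. Rps6, the target of the S6 kinases, had 372 ± 55.8 RPKM, and Rpsa, also known as the laminin receptor, had 229 ± 29.7. Rpl5 (163 ± 29.6) and Rpl11 (386 ± 70.04), which bind 5S rRNA and can hold back Mdm2, had nearly equal counts (204765 and 197586 over the 34 libraries), which the authors' RPKM divides by 2045 and 833 bases.

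**Figure D1:**
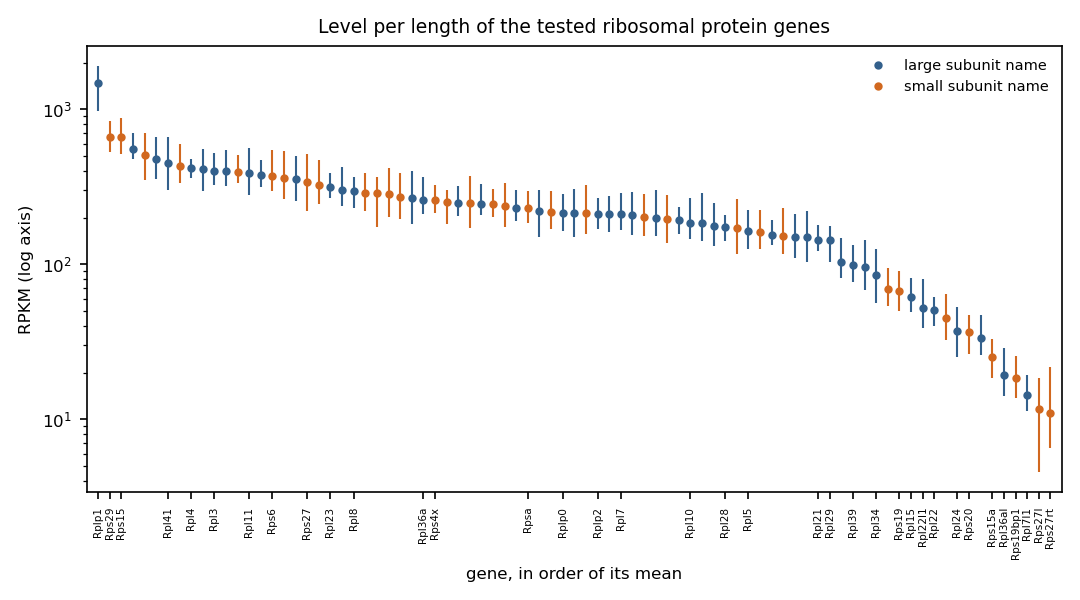
Mean RPKM (points, log axis) and range over 34 libraries (lines) of the 83 tested ribosomal protein genes in order of their mean, blue for large and orange for small subunit names; genes named in the text are labelled. Rplp1 stands above the rest at 1480, and the last 5 genes, from Rpl36al to Rps27rt, lie under 20.

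The lowest tested genes were Rps27rt (10.9 ± 3.09 RPKM), Rps27l (11.6 ± 3.18) and Rpl7l1 (14.3 ± 1.64). Each of these is a copy of a more abundant gene. Per length, Rps27 exceeded Rps27l by 17.0 to 56.4 times and Rps27rt by 17.0 to 46.3 times over the libraries, and Rpl7 exceeded Rpl7l1 by 12.3 to 18.0 times. X-linked Rpl36a exceeded its autosomal copy Rpl36al by 9.86 to 17.5 times. Lengths add to both ratios. Rpl7 and Rpl7l1 had 150451 and 27614 counts over all libraries, divided by 1163 and 3140 bases. Rpl36a and Rpl36al had 77253 and 16059 counts, divided by 483 and 1353 bases. Rpl22 and Rpl22l1 were nearly equal per length, at 50.7 ± 5.50 and 52.5 ± 10.2 RPKM, with a ratio of 0.766 to 1.35, while their counts over all libraries were 64337 and 18076, divided by 2065 and 561 bases. Copies known from other tissues were near or at the limit. Rpl3l, a muscle form of Rpl3, had at most 10 counts in a library and Rpl39l, a testis form of Rpl39, at most 7. Rpl10l, a testis form of Rpl10, was at 0 counts in all 34 libraries, which allows up to 3 counts in each (counting error only).

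Lengths enter these values. Tested ribosomal protein genes had a median length of 975 bases in the authors' RPKM, against 3461 for the other protein coding rows with a mean of at least 10 counts. Some members, Rpl5 and Rpl22 among them, were divided by a long length, which lowers the value. Rps15a, at 25.1 ± 3.27 RPKM, was divided by 5395 bases, and Rps20, at 36.5 ± 5.31, by 3706. The tables also hold 311 pseudogene rows named after members, which took 0.00924% to 0.0155% of the counts of a library. The sources used here do not say how reads matching several copies were counted, so levels of near-identical copies (Rps27 and Rps27rt above all) are uncertain. Rps19bp1, which meets the naming rule, encodes a protein that binds Rps19 and not a part of the ribosome (18.4 ± 2.79 RPKM).

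Between 1.503% and 2.56% of all counts of a library lay in the 86 genes. Counting error is far smaller than that range, since the 95% Wilson interval of a share was at most 0.0148 percentage points wide. In sham WT libraries 1 to 5 the shares were 1.74, 1.81, 2.30, 1.92 and 1.61%. In sham Dp16 they were 1.69, 1.67 and 2.05%, and in sham 5xFAD 1.75, 1.93, 1.94 and 1.78%. Sham 5xFAD-Dp16 had 1.73, 1.503 and 1.64%, the lowest group mean (1.62 ± 0.114%, SD, n = 3). One library in sham WT and one in sham Dp16 stood above 2%, and none in the other sham groups did.

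With tofacitinib the shares were 1.74, 2.18, 2.01, 2.39 and 1.88% in WT and 2.35, 1.78, 1.74, 1.77 and 1.81% in Dp16. For 5xFAD they were 2.38, 1.68, 1.83, 2.46 and 2.34%, and 5xFAD-Dp16 had 2.56, 1.77, 1.96 and 1.67%. Group means were 2.04 ± 0.255, 1.89 ± 0.257, 2.14 ± 0.357 and 1.99 ± 0.399% in that order, with n of 5, 5, 5 and 4. Every tofacitinib group held at least 1 library above 2% and at least 1 under 1.8%. Each overlapped the sham group of its genotype. Large and small subunit genes kept a nearly fixed proportion, with 1.48 to 1.59 counts in large subunit genes for each count in small subunit genes.

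**Figure D2:**
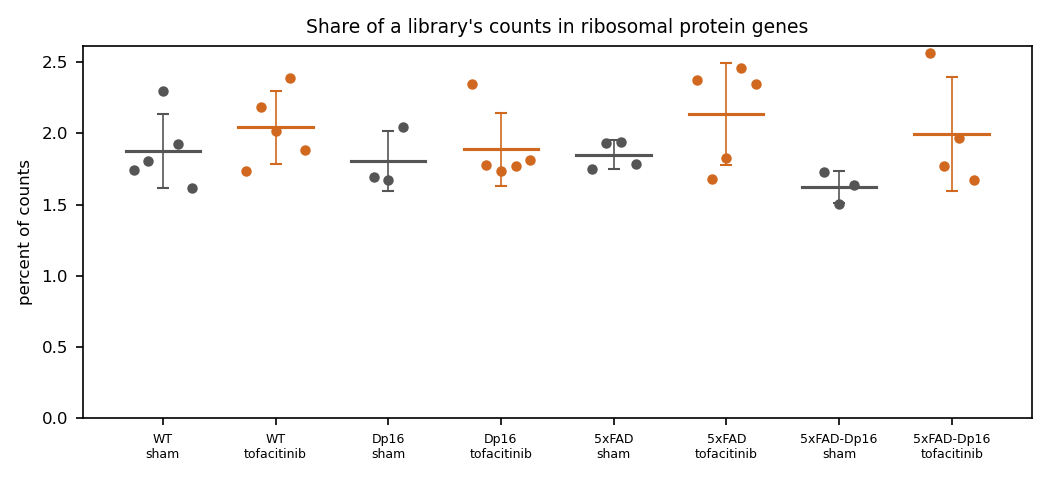
Percent of each library's counts in the 86 ribosomal protein genes (points), by group, grey for sham and orange for tofacitinib, with group mean (bar) and SD (whiskers). Libraries range from 1.503 to 2.56%, groups overlap, and in Dp16 with tofacitinib 1 library, at 2.35%, lies apart from the other 4.

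The genes moved as a block from animal to animal. For each gene log2 CPM was set against its own mean over the 34 libraries. In 29 libraries at least 70 of the 83 tested genes lay on the same side of their own mean, and in 15 at least 80 did. All 83 were above it in 5 libraries (2 of tofacitinib WT, 1 each of sham WT, tofacitinib 5xFAD and tofacitinib Dp16), and none was in 2 (library 5 of sham WT and library 2 of tofacitinib 5xFAD). The mean deviation of the 83 genes ran from -0.32 in library 4 of sham 5xFAD-Dp16 to 0.34 in library 5 of tofacitinib 5xFAD. Within groups its SD was 0.183, near that of large (0.177) and small (0.192) subunit names alone.

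**Figure D3:**
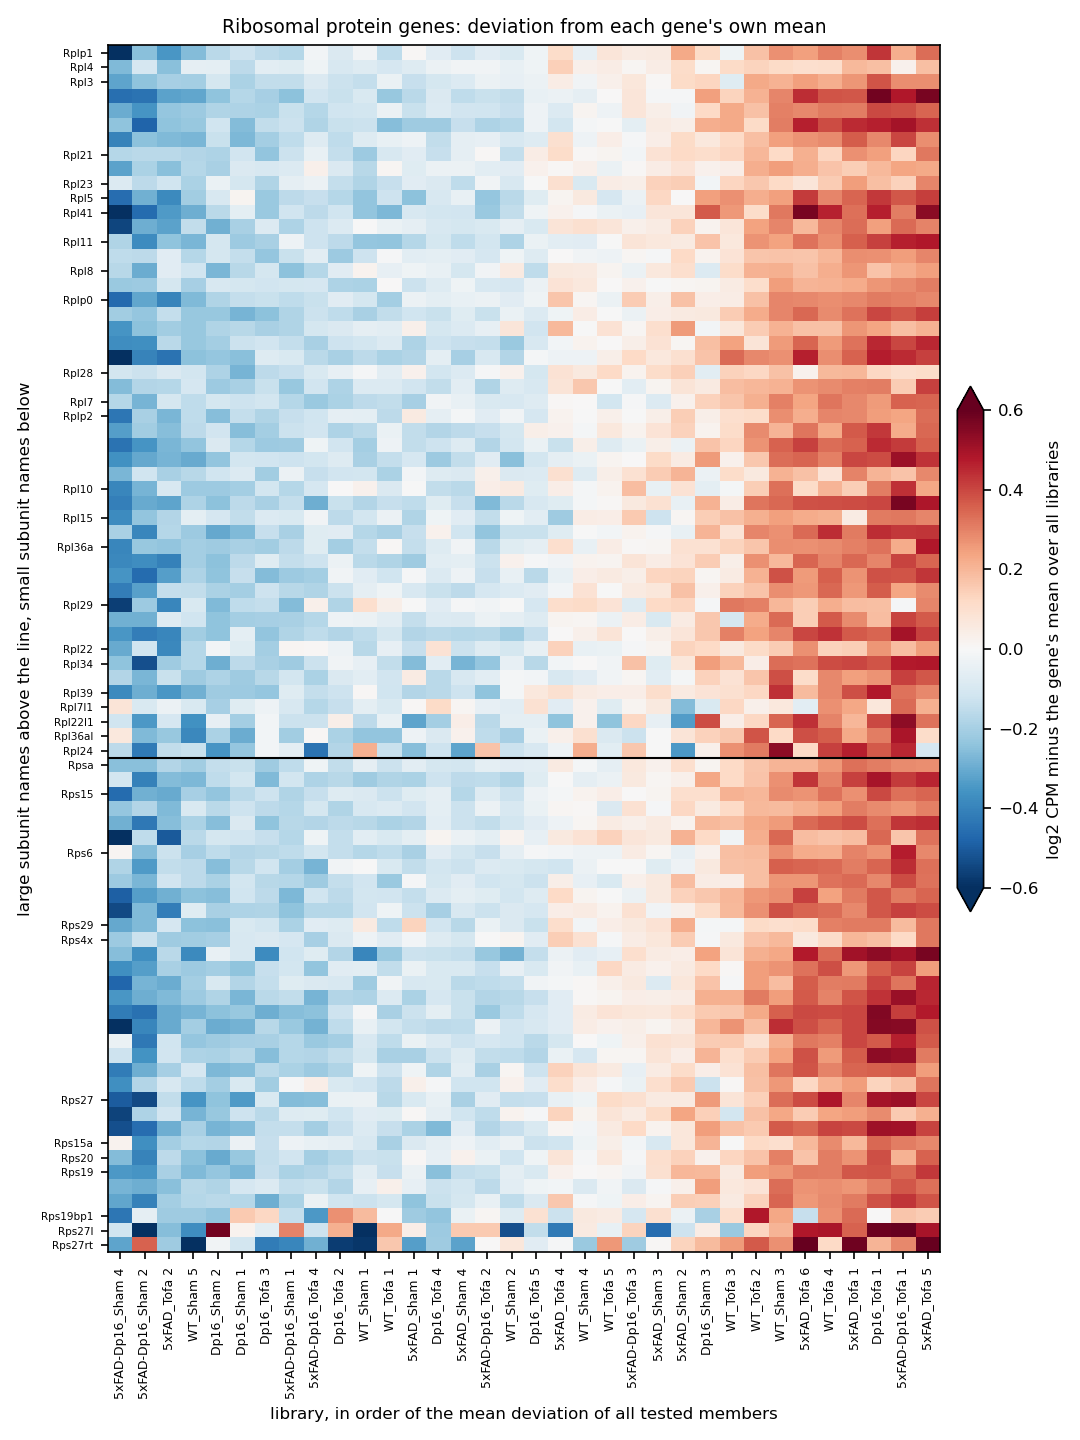
Each row is a tested ribosomal protein gene (49 large subunit names above the line, 34 small below, by level, labelled where named in the text) and each column a library in order of the genes' mean deviation, coloured by log2 CPM minus the gene's mean over 34 libraries. Columns at both ends are of nearly 1 colour, red in those with all 83 genes above their mean and blue at the other end. Columns in the middle are mixed, such as library 4 of sham WT with 46 of the 83 genes above their mean. The bottom rows Rps19bp1, Rps27l and Rps27rt are patchy.

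Single genes differed in how much they varied within groups. Rpl28 was the steadiest, with an SD of log2 CPM within groups of 0.0979, followed by Rpl4 (0.108) and Rpl8 (0.121). Median SD over the 83 genes was 0.199, beside 0.164 for the median over members of the 200 genes nearest in level to each. The most variable were Rps27l (0.398) and Rps27rt (0.321), which are also the lowest and have 40 to 188 counts a library, and then Rpl41 (0.273), a gene for a very short peptide of the large subunit.

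Other gene lists were set beside the block by the sign of their mean deviation in each library. The 25 listed genes of other TOP mRNAs, mostly translation factors, had the sign of the ribosomal protein genes in 34 of 34 libraries and ran from -0.23 to 0.17 (SD within groups 0.0935). The 40 genes of nuclear oxidative phosphorylation, short and abundant mRNAs for mitochondrial respiration, had it in 31 and ran from -0.31 to 0.36 (SD 0.178). Mitochondrial ribosomal protein genes had it in 26 (SD 0.109). For the 42 genes of ribosome biogenesis, which make and process rRNA, this was so in 17 (SD 0.0377), and for the 15 of mTORC1 and TOP regulation in 18 (SD 0.0422). These counts are a description, since all lists of a library share its depth and scaling.

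**Figure D4:**
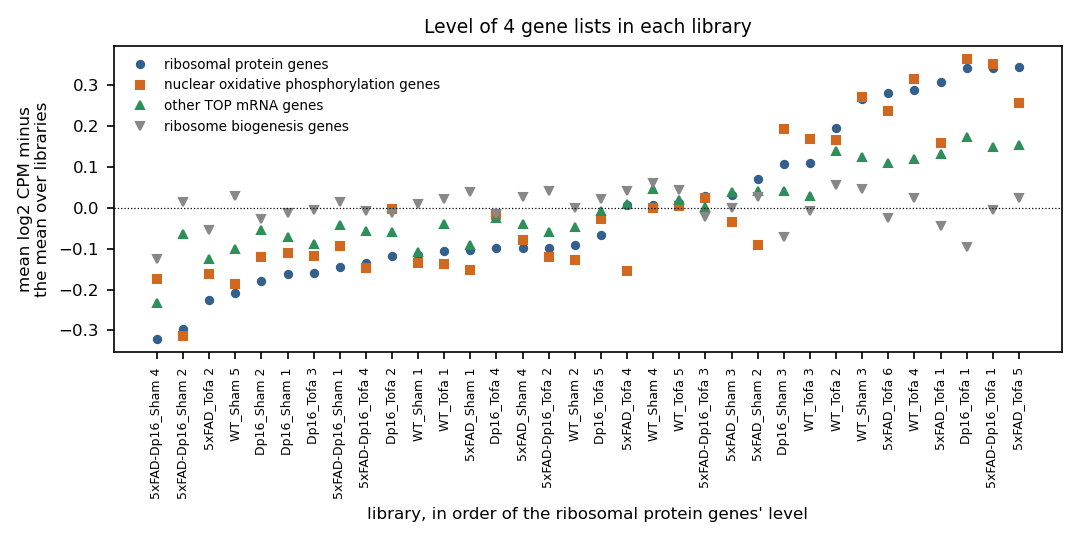
Mean log2 CPM of 4 gene lists in each of 34 libraries, as the deviation from the mean over libraries, in order of the ribosomal protein genes. Oxidative phosphorylation genes cover nearly the same range (-0.31 to 0.36) as ribosomal protein genes (-0.32 to 0.34), other TOP mRNA genes a narrower one (-0.23 to 0.17), and ribosome biogenesis genes stay between -0.12 and 0.06.

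Single libraries show the lists side by side. In library 1 of tofacitinib Dp16 the deviation was 0.34 for ribosomal protein genes, 0.36 for oxidative phosphorylation, 0.17 for other TOP mRNAs and -0.10 for ribosome biogenesis. In library 2 of sham 5xFAD-Dp16 these were -0.30, -0.31, -0.07 and 0.01. Library 2 of sham 5xFAD went another way for respiration, with 0.07 for ribosomal protein genes and -0.09 for oxidative phosphorylation. Short mRNAs as a whole varied too: protein coding genes under 1000 bases that are no members took 1.20 to 1.90% of counts. Their part in the block, and that of RNA quality, was not tested. In bulk tissue fewer cells of a type and less RNA per cell cannot be told apart.

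Whether the extra chromosome 16 segment goes with a change of ribosomal protein genes was asked by averaging its effect over 4 backgrounds (WT or 5xFAD, sham or tofacitinib). Rpl29 and Rpl8 were lower with the segment, and they were the 2 genes of 83 that passed the test (adjusted p under 0.05, edgeR quasi-likelihood test with Benjamini-Hochberg adjustment over 17518 genes). None was higher. Over all genes tested 0.48% were called lower in this comparison, and the small count of 2 in 83 is to be read against that background. The median log2 fold change of the 83 genes was -0.12, and 81 of the 83 were below 0, where the median of all genes was -0.00. At an unadjusted p under 0.05, 22 of 83 were lower and none higher, beside 6.11% lower of all genes. Since the 83 genes moved together in single animals, they are not 83 separate observations of the segment. That count of 22 ran from 12 to 45 when 1 library was left out. It was 12 without library 4 of sham 5xFAD-Dp16 or library 4 of tofacitinib 5xFAD-Dp16 and 14 without library 1 of tofacitinib 5xFAD. It was 36 without library 1 of tofacitinib 5xFAD-Dp16, 42 without library 1 of tofacitinib Dp16 and 45 without library 2 of tofacitinib 5xFAD. In these refits the share of all genes at that p was not counted.

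Rpl29 encodes a large subunit protein also known to bind heparin on cell surfaces. Its CPM in sham WT libraries was 122, 113, 130.2, 123 and 106, and in sham Dp16 it was 102, 94.4 and 113. Sham 5xFAD gave 113, 124, 123 and 113, and sham 5xFAD-Dp16 94.7, 97.4 and 76.7. The 3 sham 5xFAD-Dp16 libraries lay below every sham 5xFAD and WT library, and sham Dp16 and WT overlapped at 1 library. With tofacitinib the values were 116, 139.7, 141, 132 and 119.8 in WT and 128, 100.004, 103, 108 and 106 in Dp16. The 5xFAD libraries gave 129, 86.5, 122, 139 and 126, and those of 5xFAD-Dp16 gave 113, 112, 107 and 116. Here the groups with and without the segment overlapped, through library 1 of Dp16 and library 2 of 5xFAD. The averaged log2 fold change was -0.23 ± 0.06 (SE), with an adjusted p of 0.0234 (edgeR). The call held in 30 of 34 refits that each left out 1 library and was lost without library 2 of tofacitinib WT, library 2 of sham Dp16, library 4 of sham 5xFAD-Dp16 or library 3 of tofacitinib 5xFAD-Dp16 (adjusted p from 0.000745 to 0.0902 over the 34).

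Rpl8 encodes a large subunit protein at the base of the peptidyl transferase centre. In sham WT its CPM was 311, 318, 356, 318 and 282, and in sham Dp16 it was 274, 254 and 290.3. Sham 5xFAD had 302, 329, 321 and 285, and sham 5xFAD-Dp16 259, 249.7 and 274. The sham 5xFAD-Dp16 libraries were again below every sham WT and 5xFAD library, while 1 sham Dp16 library lay above the lowest WT value. With tofacitinib the CPM was 297, 355, 331, 357 and 311 in WT and 346, 293, 285, 298 and 276 in Dp16. It was 369, 293, 319, 364 and 347 in 5xFAD and 357, 303, 299.8 and 273 in 5xFAD-Dp16, and groups with and without the segment overlapped. The averaged log2 fold change was -0.19 ± 0.05, with an adjusted p of 0.0416 (edgeR). It held in 9 of the 34 refits that left out 1 library (adjusted p from 0.0155 to 0.105). It was lost with library totals in place of TMM (adjusted p = 0.118) and without the filter on low counts (adjusted p = 0.108).

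Next in order of p was Rpl28, the steadiest gene, at -0.15 ± 0.04 (adjusted p = 0.0638, edgeR). Its mean CPM was 254 ± 18.4 in sham WT, 221 ± 16.7 in sham Dp16, 258 ± 17.8 in sham 5xFAD and 228 ± 2.16 in sham 5xFAD-Dp16. Other members had log2 fold changes of a like size with larger errors, such as Rplp1 at -0.14 ± 0.07, Rplp0 at -0.12 ± 0.07 and Rplp2 at -0.16 ± 0.06. Rps6 (-0.05 ± 0.07), Rpl11 (-0.05 ± 0.08) and Rpl22 (-0.01 ± 0.06) were nearer 0. Of the X-linked genes, Rps4x was at -0.12 ± 0.05, Rpl10 at -0.12 ± 0.06, Rpl36a at -0.15 ± 0.06 and Rpl39 at -0.13 ± 0.08, and none of these 10 genes passed the threshold. Without the 3 libraries low in dentate gyrus markers, Rpl29 and Rpl8 still passed (adjusted p = 0.00346 and 0.0140) and the median of the 83 genes was -0.13. Markers of other cells gave these values in the same comparison: 10 of 10 oligodendrocyte markers were above 0 (median 0.21, 2 called higher), striatum markers had a median of -0.74 and ependymal markers one of 0.41 (none called in either). Their part in the result was not tested.

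Among the listed genes around the cytosolic ribosome and the mitochondrion, 5 were called with the segment. Over all genes 0.902% were called higher and 0.48% lower. Fbl, the methyltransferase of rRNA in the nucleolus, fell by 0.34 on the log2 scale (SE 0.05, adjusted p = 1.14e-05, edgeR) and was the only one called of 42 biogenesis genes. Eif3f, a subunit of the initiation factor eIF3 and 1 of 25 other TOP mRNA genes, was lower as well (-0.15 ± 0.04, adjusted p = 0.0276). Of 77 tested mitochondrial ribosomal protein genes 2 rose, Mrpl39 (0.64 ± 0.04, adjusted p = 2.79e-12) and Mrps6 (0.52 ± 0.11, adjusted p = 0.0113), and of 40 oxidative phosphorylation genes Atp5j rose (0.55 ± 0.07, adjusted p = 8.75e-07). Mrpl39, Mrps6 and Atp5j lie in the segment itself. Fbl and Eif3f lie elsewhere. Rack1 (-0.12 ± 0.07) and Fau (-0.12 ± 0.07), which encode ribosome components but do not carry Rpl or Rps names, did not pass.

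Sham animals of single genotypes were compared next. In 5xFAD-Dp16 against WT no ribosomal protein gene was called (0.959% of all genes were called in either direction), and 81 of 83 had a log2 fold change below 0, with a median of -0.23 beside 0.01 for all genes. An unadjusted p under 0.05 was reached by 16, each lower, beside 5.19% lower of all genes. The smallest p belonged to Rpl29 (-0.39 ± 0.11, adjusted p = 0.0902) and Rpl8 (-0.28 ± 0.10, adjusted p = 0.164, edgeR). DESeq2 called 1 member here (1.99% of all genes), and edgeR without the filter on low counts called 3 (4.06% of all genes). The count of 16 ran from 3 to 33 with 1 library left out: 3 without library 4 of sham 5xFAD-Dp16, 6 without library 3 of sham WT, 31 without library 1 of sham 5xFAD-Dp16 or library 2 of tofacitinib 5xFAD, and 33 without library 5 of sham WT. The median then lay between -0.32 and -0.15. Against 5xFAD, the 5xFAD-Dp16 animals had a median of -0.20, with Rpl29 at -0.38 ± 0.12, and none was called (0.268% of all genes were called). An unadjusted p under 0.05 was reached by 16, each lower, beside 4.02% lower of all genes. With 1 library left out this count ran from 2 to 20, and it was 2, 3, 8 and 10 without library 4 of sham 5xFAD-Dp16, library 2 of sham 5xFAD, library 2 of sham 5xFAD-Dp16 and library 3 of sham 5xFAD. Against Dp16 the median was -0.17, with Rpl41 at -0.45 ± 0.21 and Rpl5 at -0.35 ± 0.19, and no gene of any kind was called by edgeR. In that comparison 1 member had an unadjusted p under 0.05 (7.28% of all genes in either direction), and DESeq2 called no member. Leaving out 1 library gave 0 to 5 such members and a median between -0.24 and -0.08, where -0.08 was without library 3 of sham Dp16 and the count of 5 without library 1 of sham 5xFAD-Dp16 or library 2 of tofacitinib 5xFAD. These 3 comparisons share the same 3 libraries of 5xFAD-Dp16, so they are not independent. The 83 genes also moved together in single animals and are not 83 separate observations of a genotype. In fits that left out libraries, the share of all genes at an unadjusted p under 0.05 was not counted. Within sham 5xFAD-Dp16 the mean deviation of the 83 genes was -0.15, -0.30 and -0.32 in libraries 1, 2 and 4. Library 4 is also 1 of the 3 low in dentate gyrus markers. Without these 3 libraries the medians were -0.20, -0.17 and -0.13, and 5, 5 and 0 members had an unadjusted p under 0.05. Beside this, oligodendrocyte markers had a median of 0.59 and thalamus and habenula markers one of 1.46 in 5xFAD-Dp16 against WT, with none called. Their part was not tested.

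For Dp16 or 5xFAD alone the medians were nearer 0. Dp16 against WT had a median of -0.05 over the 83 genes (59 below 0, none called, beside 0.308% of all genes called). Rpl28 (-0.20 ± 0.08) and Rpl8 (-0.22 ± 0.10) had the smallest p, with adjusted p of 0.575 and 0.615 in edgeR. Both had an unadjusted p under 0.05, as did 7.29% of all genes. DESeq2 called none. That median rested on single libraries, being 0.02 without library 3 of sham WT and -0.15 without library 3 of sham Dp16. The libraries named had shares of 2.30 and 2.05%, the highest of their groups. Markers of choroid plexus (10 of 10 above 0, median 1.22), ependymal cells (10 of 10, 0.90) and oligodendrocytes (10 of 10, 0.29) were not called in Dp16 against WT. Mean log2 CPM of the choroid plexus markers was 0.68 to 5.97 in the sham WT libraries and 4.39 to 6.20 in the sham Dp16 libraries. Their part was not tested. In 5xFAD against WT the median was -0.01 (-0.06 to 0.06 with 1 library left out), 36 of 83 were above 0 and none was called by edgeR or DESeq2 (0.445% of all genes were called in edgeR). Rpl24, a large subunit protein at the subunit interface, had the smallest p (-0.38 ± 0.16, adjusted p = 0.830), and it alone of the 83 had an unadjusted p under 0.05 (5.09% of all genes). Rpl34 followed (-0.17 ± 0.15, unadjusted p = 0.273).

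Averaged over 4 backgrounds, the 5xFAD transgenes gave a median of -0.02 over the 83 genes, with none called (1.59% of all genes were called) and none at an unadjusted p under 0.05 (10.5% of all genes). DESeq2 called none either. Rps19bp1 (-0.12 ± 0.07, adjusted p = 0.550, edgeR) and Rpl15 (-0.08 ± 0.06, adjusted p = 0.650) came first. Of 12 microglial markers 9 were called higher in that comparison, with a median of 0.59. The test of the 5xFAD effect in Dp16 against that in WT (sham) gave a median of -0.17, with Rpl41 at -0.47 ± 0.27 and Rplp1 at -0.36 ± 0.22. That median was -0.07 without library 3 of sham Dp16, -0.10 without library 4 of sham 5xFAD-Dp16 and -0.25 without library 3 of sham WT. No gene was called in it by edgeR, no member had an unadjusted p under 0.05 (5.46% of all genes), and DESeq2 called no member.

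Tofacitinib was compared with sham within each genotype and on average over the 4. On average all 83 genes had a log2 fold change above 0, from 0.08 to 0.27, with a median of 0.17 beside 0.00 for all genes. None passed the threshold, and neither did any other gene of the 17518 (0% called). At an unadjusted p under 0.05 there were 67 of 83, each higher, beside 4.8% higher of all genes. The smallest adjusted p was 0.618 in edgeR. DESeq2 called no member, and edgeR without the filter on low counts called 7 of them (0.291% of all genes). Since the 83 genes moved together in single animals, they are not 83 separate observations of the treatment. Striatum markers had a median of 0.68 (10 of 10 above 0) and dentate gyrus markers one of -0.16 (0 of 8 above 0) in the same comparison, none called, and their part was not tested.

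**Figure D5:**
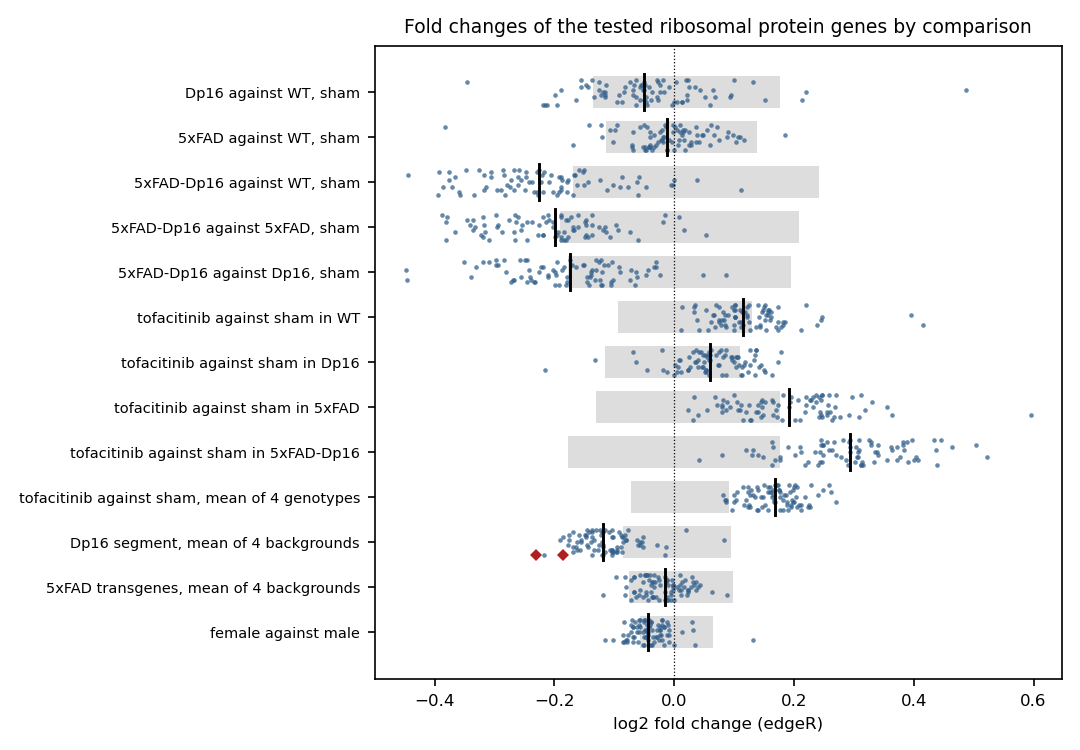
Log2 fold changes (edgeR) of the 83 tested ribosomal protein genes (points, red diamonds where called) in 13 comparisons, with their median (black line) and the interquartile range of all 17518 genes (grey). For tofacitinib on average over genotypes all points are above 0 with a median of 0.17, for the Dp16 segment the median is -0.12 and Rpl29 and Rpl8 are called.

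Rpl10, an X-linked large subunit gene whose product completes the tRNA-binding site, had the smallest p of the average (0.18 ± 0.06, unadjusted p = 0.00264, adjusted p = 0.618, edgeR). Its CPM in sham 5xFAD-Dp16 was 148, 137 and 127, and with tofacitinib it was 226, 171, 189 and 155. The 2 groups did not overlap in this genotype, at a log2 fold change of 0.44 ± 0.12 (adjusted p = 0.668). In sham Dp16 it was 145, 143 and 159.9, and with tofacitinib 206, 167, 154, 150.5 and 158, which overlapped. Sham WT had 169, 173, 209, 165 and 143 and tofacitinib WT 157, 184, 165, 192 and 169, again overlapping. Sham 5xFAD had 166, 177, 161 and 149, beside 185, 156, 171, 196 and 180.4 with tofacitinib, which overlapped too.

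Rps27, a small subunit gene with a zinc finger product, came second (0.27 ± 0.09, unadjusted p = 0.00349, adjusted p = 0.618, edgeR). In sham 5xFAD-Dp16 its CPM was 129, 106 and 109, and with tofacitinib 221, 148, 166 and 129.7. The nearest libraries of the sham and tofacitinib groups were apart by less than 1 CPM there (129.3 and 129.7). Sham WT had 151, 140.3, 195, 152 and 121, and tofacitinib WT 138, 171, 163, 217 and 167. In Dp16 sham libraries had 122, 131 and 185 and tofacitinib libraries 218, 150.4, 145, 149.8 and 140.5. In 5xFAD sham libraries had 145, 161, 161 and 135 and tofacitinib libraries 189.7, 139.8, 150.1, 204 and 203. Sham and tofacitinib overlapped in WT, Dp16 and 5xFAD.

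Rplp1 showed the same kind of spread, with 721, 686, 883, 707 and 610.5 CPM in sham WT and 657, 825, 717, 901 and 768 with tofacitinib. In sham 5xFAD-Dp16 it had 649.8, 614 and 453, below all 4 tofacitinib libraries of that genotype (850.5, 698, 755 and 722). Its averaged log2 fold change with tofacitinib was 0.17 ± 0.07 (adjusted p = 0.618, edgeR). Values for other roles were close to it: 0.17 ± 0.07 for Rplp0, 0.13 ± 0.06 for Rplp2, 0.15 ± 0.06 for Rpsa, 0.16 ± 0.06 for Rps6, 0.16 ± 0.08 for Rpl5, 0.19 ± 0.08 for Rpl11 and 0.16 ± 0.06 for Rpl3. Rps4x (0.08 ± 0.05), Rpl28 (0.09 ± 0.04) and Rpl4 (0.08 ± 0.04) had the smallest of the values named here, and the latter 2 are also the steadiest genes. Among paralogs, Rpl22 was at 0.10 ± 0.05, Rpl22l1 at 0.17 ± 0.08, Rps27l at 0.24 ± 0.14 and Rps27rt at 0.21 ± 0.12. None of these was called, and Rps27l and Rps27rt have only 40 to 188 counts a library.

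Taken by genotype, the 83 genes had a median log2 fold change with tofacitinib of 0.11 in WT, 0.06 for Dp16, 0.19 for 5xFAD and 0.29 for 5xFAD-Dp16. No member was called in any of them by edgeR or DESeq2, and of all genes 0.00571% were called in Dp16 and 0% in the other genotypes. In 5xFAD-Dp16 edgeR without the filter on low counts called 3 members (1.24% of all genes). Unadjusted p under 0.05 was reached by 0, 0, 3 and 34 members in that order, beside 2.8, 1.98 and 5.81% of all genes in either direction and, for 5xFAD-Dp16, 3% higher. In WT the smallest p belonged to Rps27rt (0.42 ± 0.22) and Rpl23 (0.16 ± 0.08), in Dp16 to Rpl28 (0.12 ± 0.08) and Rpl10 (0.16 ± 0.12), and in 5xFAD to Rps27rt (0.60 ± 0.23) and Rpl34 (0.36 ± 0.15).

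Single libraries set much of these medians. In WT the median was 0.19 without library 3 of sham WT, with 6 members then at an unadjusted p under 0.05, and 0.07 without library 5 of sham WT or library 4 of tofacitinib WT. In Dp16 it was 0.17 without library 3 of the sham group and -0.04 without library 1 of tofacitinib Dp16, whose share of 2.35% was the highest of its group. In 5xFAD-Dp16 it was 0.16 without library 1 of the tofacitinib group (share 2.56%), and 2 members in place of 34 then had an unadjusted p under 0.05. That count was 4 and 16 without libraries 4 and 2 of the sham group and 52 without library 4 of the tofacitinib group. Library 1 of tofacitinib 5xFAD-Dp16 also had raised striatum and thalamus markers, as given above. In 5xFAD it was 0.27 without library 2 of the tofacitinib group, which is 1 of the 3 low in dentate gyrus markers, and 47 members in place of 3 then had an unadjusted p under 0.05. That count was 20 without library 4 of the tofacitinib group and 19, 17 and 12 without library 1 of tofacitinib Dp16, library 1 of tofacitinib 5xFAD-Dp16 and library 4 of tofacitinib 5xFAD-Dp16. The average over genotypes stayed between 0.14 and 0.20 whichever library was left out, with 46 to 81 members at an unadjusted p under 0.05. Without the 3 libraries low in dentate gyrus markers it was 0.19, with 78 such members and none called. Within 5xFAD-Dp16 the same omission left 11 such members in place of 34, at a median of 0.27. In fits that left out libraries, the share of all genes at an unadjusted p under 0.05 was not counted. These counts of members therefore have no background beside them.

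Whether the response to tofacitinib differed from that in WT was tested for each other genotype. Median differences of -0.05 (Dp16), 0.07 (5xFAD) and 0.17 (5xFAD-Dp16) were found, and each rested on single libraries. For Dp16 it was 0.05 without library 3 of sham Dp16 and -0.16 without library 1 of tofacitinib Dp16. For 5xFAD it was -0.00 without library 3 of sham WT and 0.15 without library 2 of tofacitinib 5xFAD. For 5xFAD-Dp16 it was 0.05 without library 1 of tofacitinib 5xFAD-Dp16, 0.10 without library 3 of sham WT and at most 0.25. No gene was called in any of these by edgeR (0% of all genes), and DESeq2 called no member. An unadjusted p under 0.05 was reached by 0, 0 and 1 members, beside 2.26, 1.88 and 3.85% of all genes, and by at most 2 with any 1 library left out. That gene was Rpl10, at 0.43 ± 0.16 in 5xFAD-Dp16 (adjusted p = 0.980). In Dp16 Rps27rt was at -0.63 ± 0.33 and in 5xFAD Rpl34 at 0.29 ± 0.21. A difference in response between genotypes was not detected for any member.

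Genes around the ribosome gave the following with tofacitinib on average, none of them called. Rack1, a scaffold on the small subunit, was at 0.19 ± 0.06, and Fau, which encodes eS30 fused to a ubiquitin-like part, at 0.19 ± 0.07. Of 25 other TOP mRNA genes 19 were above 0 with a median of 0.08, and 7 had an unadjusted p under 0.05, among them Eef1a1, the elongation factor that brings tRNA (0.13 ± 0.06). All 40 oxidative phosphorylation genes were above 0, with a median of 0.16 and 28 at an unadjusted p under 0.05. Of all genes, 4.8% were higher at that p. Lists of a library share its depth and scaling, so genes of these lists are not separate observations of the treatment. Of 77 mitochondrial ribosomal protein genes 67 were above 0, with a median of 0.08. Biogenesis genes were evenly split, 21 of 42 above 0 with a median of -0.00, and so were the 15 genes of mTORC1 and TOP regulation, with 7 above 0. Neuronal markers had a median of -0.03 and microglial markers one of -0.01.

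Sex was a term of the fit. No ribosomal protein gene was called between females and males by edgeR (0.0628% of all genes were called, and DESeq2 called no member), none had an unadjusted p under 0.05 (3.06% of all genes), and the median was -0.04. The X-linked Rpl10 was at 0.04 ± 0.06, Rpl36a at -0.07 ± 0.06 and Rpl39 at -0.05 ± 0.08. Rps19bp1 (0.13 ± 0.07) and Rpl21 (-0.07 ± 0.05) had the smallest p. Among other TOP mRNA genes the X-linked Eif2s3x, a subunit of the initiation factor eIF2 that is known to be expressed from both X chromosomes, was higher in females (0.54 ± 0.04, adjusted p = 3.13e-10, edgeR).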

How the data were processed

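Counts came from the table the authors deposited, as whole numbers that were not normalised, and RPKM from the authors' second deposited table. Per the submitters' processing notes the tools were bcl2fastq, FastQC 0.11.5, HISAT2 2.1.0, SAMtools 1.5 and HTSeq 0.6.1 on GRCm38, with no roles given. The labels' protocols describe poly(A) enrichment, strand-specific libraries and paired reads of 150 bp. For 12463 genes with at least 20 counts, RPKM was the count over the library sum and a length (relative deviation 7.77e-16). Gene models are GENCODE release 24 by the names of the files. Positions come from release 21, where 55144 of 55385 identifiers were found. Strand setting in counting was not stated, and overlapping genes may share reads.

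All 34 libraries (14.9 to 21.1 M counts) entered 1 fit in edgeR 4.0.16: TMM, filterByExpr by group, robust quasi-likelihood F-test, 8 group means and sex, 25 residual degrees of freedom. Tests were two-sided, with Benjamini-Hochberg adjustment over 17518 genes and a threshold of 0.05, and adjusted p without another tool's name are edgeR's. SE were derived from fold change and F. List levels average log2 CPM (prior count 2). Intervals of shares are 95% Wilson intervals for counting error only.

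Named genes follow a rule: roles (stalk, 5S particle, X-linked, paralogs), the 3 highest, lowest, most and least variable members, members past the threshold or else the 2 with the smallest p per comparison, and called genes of other lists. Some genes that meet this rule are not reported here. Rps15a, Rps20, Eef1a1 and, in the segment comparison, the members other than Rpl29 and Rpl8 that no role names were named after their values were seen. Members and lists were chosen with earlier results of these data known. Alternatives were DESeq2 size factors, library totals, no filter, no sex term, the replicate block, 2 surrogate variables (sva 3.50.0), DESeq2 1.42.0, compared groups alone, each library left out and, chosen after seeing the data, the omission of 3 libraries low in hippocampal markers. The fit was tested on simulated data.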

Additional observations from a re-analysis of the deposited data

Results flagged for a closer look

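Groups of 4 to 10 libraries were searched for a library far from the others, in which the gap to the nearest library took more of the group's range than Dixon's 95% value allows. Of 144 groups examined (share of counts and CPM of named members), 14 had such a library. Chance gives about 1 in 20 for a single group. The groups share libraries and genes that moved together, so that rate cannot be set against the 14. Library 1 of tofacitinib Dp16 was high in 12 of the 14. Its share of counts in ribosomal protein genes was 2.35%, and its CPM was 360.4 for Rplp0, 984 for Rplp1, 264 for Rplp2, 719.6 for Rpsa, 442 for Rpl5, 422 for Rpl11, 285 for Rps4x, 156 for Rpl36a, 697 for Rpl3, 218 for Rps27 and 128 for Rpl29. These are not 12 separate events, since the genes moved together. Library 2 of tofacitinib 5xFAD was low in the other 2, with 220.4 CPM for Rplp0 and 79.7 CPM for Rpl22. It is 1 of the 3 libraries low in dentate gyrus markers. No cause was tested for either library.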

How the results depend on the processing

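Counts of called members stayed on their side of the threshold under most settings, with these exceptions. Library totals in place of TMM gave 1 called gene for the Dp16 segment. Without the filter on low counts Rpl8 lost its call for the segment, as given above. The counts of called members for the segment without that filter and in DESeq2 are not given here. No filter on low counts gave 3 in sham 5xFAD-Dp16 against WT, 3 with tofacitinib in 5xFAD-Dp16 and 7 with tofacitinib on average. DESeq2 gave 1 in sham 5xFAD-Dp16 against WT. Leaving out each library gave 0 to 6 for the segment (6 without library 2 of tofacitinib 5xFAD, 4 without library 1 of tofacitinib Dp16) and 0 to 1 in sham 5xFAD-Dp16 against WT (1 without library 2 of sham 5xFAD-Dp16 or library 2 of tofacitinib 5xFAD). The cause of these changes was not tested. For the segment, Rpl29 was called in 30 of the 34 refits and not called in 4, and Rpl8 was called in 9 and not called in 25. The share of all genes called in each refit is not given here. As a percent of nuclear protein coding counts the mean share was 1.97% in sham 5xFAD and 1.74% in sham 5xFAD-Dp16. With the replicate block in place of sex the segment had 2 called members (Rpl29, adjusted p = 0.0307, and Rpl8, 0.0440), and the other comparisons had 0, as without it. The numbers gave no pairing: of 98 same-numbered pairs 23 correlated above 0.1, with a median r of 0.02 beside -0.01 for other pairs. Tested members had at least 40 counts in each library, and the effect of depth was not tested.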
